A study of Rattus norvegicus with 10 samples.

Results

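Transcripts of 10 Kruppel-like factors, Klf2, Klf3, Klf4, Klf6, Klf7, Klf9, Klf10, Klf12, Klf13 and Klf15, were measured by RNA sequencing in rat hippocampal cultures silenced with tetrodotoxin (TTX). The 10 genes were chosen by gene name, with the counts and fold changes of these same libraries already known, and they are 10 of the 14354 genes in the count table and 10 of its 15 Klf genes. Because the TTX values were in view when the members were chosen, their changes are given as a description. Their adjusted p-values are not printed and serve only to label each member as higher, lower or not passing. The other gene lists were also chosen with earlier results of these data known. Adjusted p-values printed for genes of those lists are likewise a description. The cultures were mixed neurons and glia from the hippocampus of Sprague-Dawley rats at embryonic day 18, kept in neurobasal medium with B27. One group of 5 libraries came from cultures given 1 µM TTX, which stops action potentials by blocking voltage-gated sodium channels, for 24 h from day 19 in vitro. The other group of 5 libraries came from cultures given vehicle for the same time. The labels do not say whether each numbered library is its own culture or litter, and p-values therefore measure the spread between these libraries only, which may be technical.

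Kruppel-like factors are transcription factors whose C-terminal zinc fingers bind GC-rich and CACCC sequences. Outside the fingers the family differs, and its members fall into classes by the cofactors they recruit. Klf2, Klf4, Klf6 and Klf7 act mainly as activators through acetyltransferases, Klf3 and Klf12 recruit the CtBP corepressor, and Klf9, Klf10 and Klf13 recruit the SIN3 corepressor. In rodent neurons, Klf4 and Klf9 are known to restrain axon growth, whereas Klf6 and Klf7 promote it. Several members are also known as early response genes of growth factors, hormones or neuronal activity.

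The libraries held 58785925 to 84921962 counts with TTX and 52254261 to 77757538 with vehicle. All 8 immediate-early genes used to check the treatment were lower with TTX, among them Arc, which had 5.93 ± 0.796 CPM (counts scaled to the library total) in TTX cultures and 72.1 ± 3.84 CPM in vehicle cultures (SD, n = 5 each). By the call rule given below, 35.4% of all tested genes were higher and 35.0% lower. Of 7 astrocyte markers 4 rose, Slc1a2 fell, and Slc1a3 and Aqp4 did not pass. Their sum ranged over 14119.7 to 15850.7 CPM with TTX and 9242.07 to 10859.9 CPM with vehicle, and most of it was Gfap, with 9702 ± 197.8 CPM in TTX and 5364 ± 511.5 CPM in vehicle cultures (SD, n = 5 each). Aqp4 split the TTX libraries, with 1795 and 1793 CPM in TTX replicates 1 and 2 and 272 to 339.6 CPM in TTX replicates 3 to 5, against 1049 to 1219 CPM in vehicle libraries. Markers of neurons summed to 2566.88 to 2690.74 CPM with TTX and 2474.58 to 2669.26 CPM with vehicle. Of these 6 markers Map2 and Rbfox3 rose, by 0.17 and 0.10 on the log2 scale, Stmn2 fell by 0.16, and 3 did not pass. In such mixed cultures, fewer cells of a type and less RNA per cell cannot be told apart. TTX replicate 5 stood apart from the other TTX libraries on the second principal component, and every member kept its call without it.

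With TTX, 3 members were higher, 5 were lower and 2 did not pass, and the largest changes were the rise of Klf10 and the fall of Klf4, which were alike in size within their errors. A gene is called here when its adjusted p is under 0.05 in an edgeR quasi-likelihood fit across the 13088 genes that passed a low-count filter, and all 10 members passed that filter. Klf3, Klf9 and Klf10 were called higher, and 35.4% of all tested genes were. Klf2, Klf4, Klf6, Klf13 and Klf15 were called lower, and 35.0% of all tested genes were. Over both directions 8 of 10 members were called, against 70.5% of all tested genes. Against a threshold of 1.5-fold, Klf3 and Klf10 passed as higher, which 5.35% of tested genes did, and Klf2 and Klf4 passed as lower, which 8.44% did. With DESeq2 and with limma-voom only Klf4 and Klf10 passed 1.5-fold, and Klf2 also missed it when TTX replicate 1, TTX replicate 4, vehicle replicate 2 or vehicle replicate 5 was left out, with 3 members passing each time. The CPM ranges of the groups did not overlap for 6 members and overlapped for Klf7, Klf12, Klf13 and Klf15, while they did not overlap for 57.3% of tested genes. The median log2 fold change of the members was -0.12, and that of all tested genes was 0.01. The same contrast entered the choice of the members, so nothing is read from these counts.

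**Figure D1:**
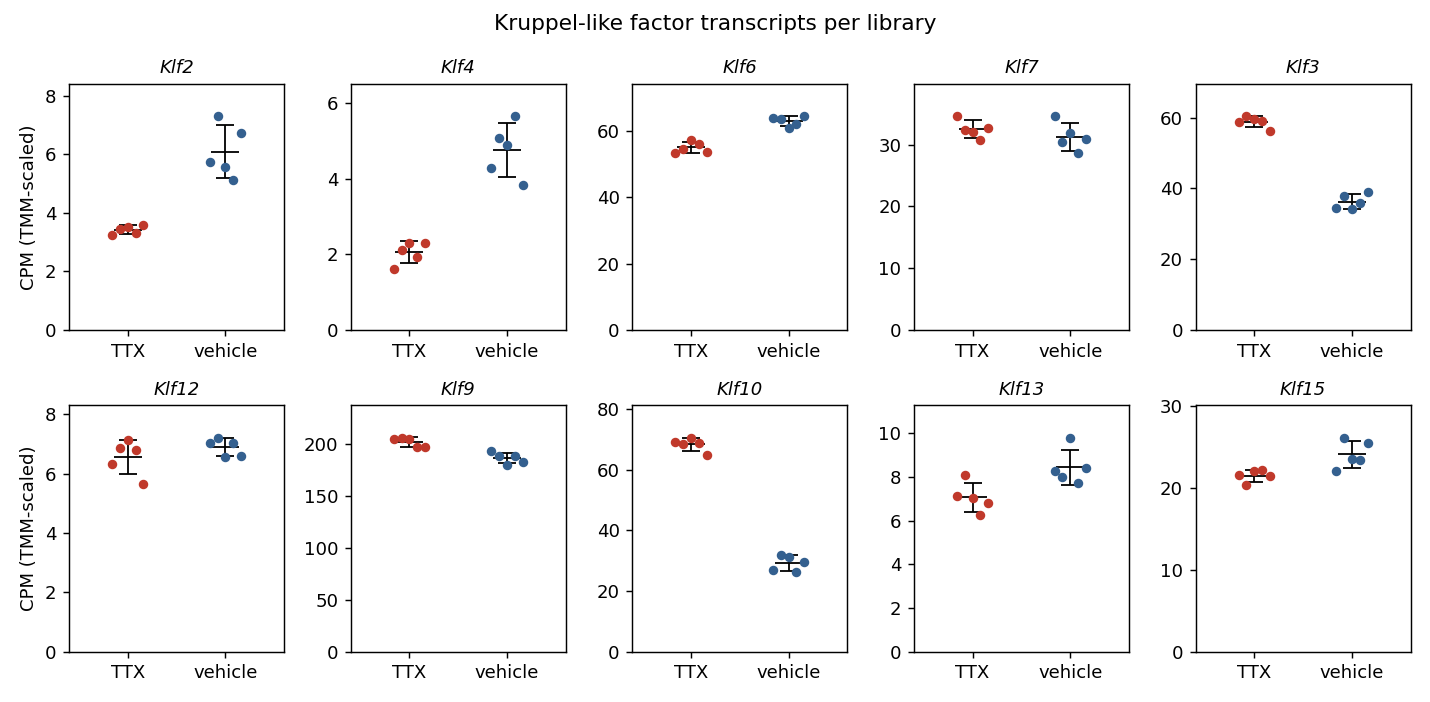
CPM of the 10 members in each library, with TTX libraries left of vehicle libraries. Points are single libraries, horizontal bars the mean and error bars the SD of 5 libraries. Klf10 and Klf3 sit higher with TTX, Klf2 and Klf4 lower, and the groups overlap for Klf7, Klf12, Klf13 and Klf15.

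Promoter windows for 7 members, all but Klf2, Klf10 and Klf13, came from the RefSeq table of build GRCr8, from 250 bases before to 50 bases after the annotated start. Windows of 4 of the 5 other Klf genes in the count table were searched with them. Motifs were searched on both strands as the full cAMP response element CRE (TGACG followed directly by TCA), its core (TGACG, which the full CRE contains), the clock E box (CACGTG), the GC box (GGGCGG), the CACCC box (CACCC), the CArG box of serum response factor, the MEF2 box and the glucocorticoid response element. The windows of Klf3, Klf6 and Klf15 are shown, all 5′ to 3′ along the gene with every match in capitals. Klf3 holds the most CACCC boxes of the 7 windows, Klf6 holds the only CArG box of the 7 windows, and Klf15 holds an E box that overlaps a CRE core. Klf3 lies at chr14:43850777-43851076 on the minus strand, Klf6 at chr17:69458429-69458728 on the minus strand and Klf15 at chr4:124522765-124523064 on the plus strand.
Klf3: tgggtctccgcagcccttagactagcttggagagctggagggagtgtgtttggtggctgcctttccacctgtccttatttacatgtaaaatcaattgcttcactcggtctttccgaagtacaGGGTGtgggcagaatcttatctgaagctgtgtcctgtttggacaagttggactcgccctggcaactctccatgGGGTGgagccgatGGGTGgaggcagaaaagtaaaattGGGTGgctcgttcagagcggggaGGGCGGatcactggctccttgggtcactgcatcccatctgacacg
Klf6: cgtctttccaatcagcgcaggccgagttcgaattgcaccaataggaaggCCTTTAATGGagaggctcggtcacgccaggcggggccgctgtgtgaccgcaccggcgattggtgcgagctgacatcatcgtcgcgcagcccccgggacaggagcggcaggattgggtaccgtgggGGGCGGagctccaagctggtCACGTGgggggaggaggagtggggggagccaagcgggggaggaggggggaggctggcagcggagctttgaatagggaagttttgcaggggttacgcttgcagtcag
Klf15: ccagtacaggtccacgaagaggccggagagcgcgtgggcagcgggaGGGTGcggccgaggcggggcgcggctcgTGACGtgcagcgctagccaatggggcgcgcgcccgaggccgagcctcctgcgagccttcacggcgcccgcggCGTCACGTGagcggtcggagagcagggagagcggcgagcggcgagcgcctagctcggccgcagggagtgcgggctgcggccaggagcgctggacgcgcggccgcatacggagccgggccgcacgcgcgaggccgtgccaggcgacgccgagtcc

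The Klf3 window held 4 CACCC boxes, all read on the opposite strand as GGGTG, and 1 GC box. A CACCC box occurred in 4 of the 7 member windows and in 54.9% of the 33469 windows of the table. The CArG box of Klf6 began at -201 from the start, and 1.64% of all windows held one. An E box stood at -56 in Klf6 and at -101 in Klf15, and 6.42% of all windows held one. The core of the CRE occurred once in Klf9, at -79, and in Klf15 at -176 and -104, and 21.2% of all windows held it. The second of these in Klf15 overlaps the E box. The full CRE, the MEF2 box and the glucocorticoid response element were found in none of the 7 windows, and in 1.83%, 3.29% and 0.439% of all windows. The Klf4 window held none of the motifs, nor did that of Klf12, and their GC contents were 45% for Klf4 and 41.3% for Klf12, against 77.3% for Klf15 and a median of 51.7% over all windows. A GC box occurred in 3 of the 7 member windows, those of Klf3, Klf6 and Klf7, and in 33.1% of all windows. Among the other Klf genes, Klf11 held 7 GC boxes and an E box. These matches describe the letters of the windows only.

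**Figure D2:**
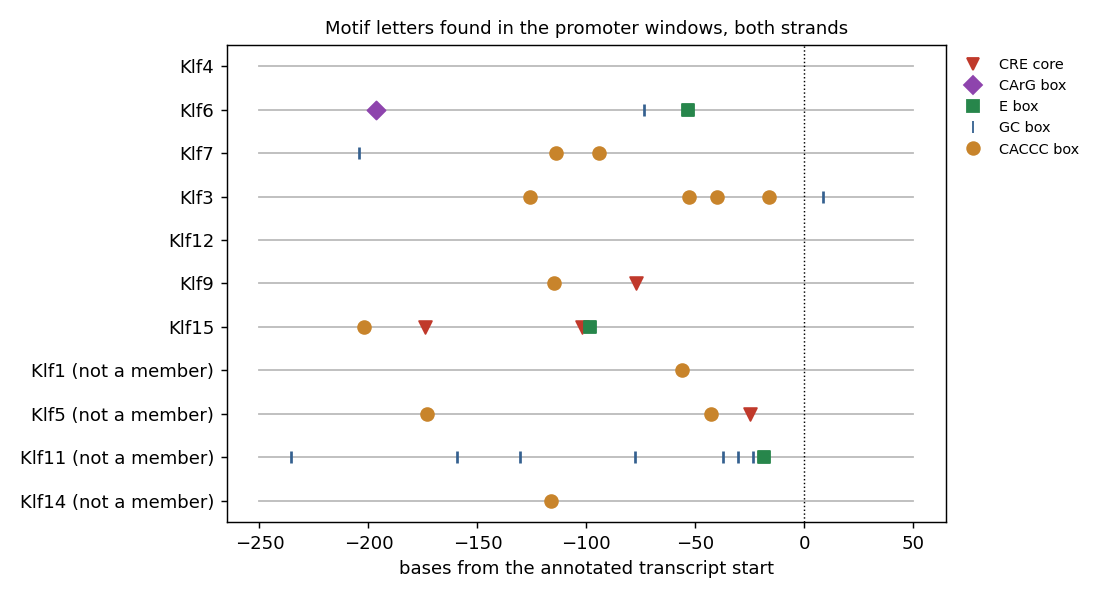
Positions of motif matches in the promoter windows of 7 members and 4 other Klf genes, in bases from the annotated transcript start. The 4 CACCC boxes of Klf3 lie between -128 and -14, and the lines of Klf4 and Klf12 carry no match.

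Among the activator class, Klf4 and Klf2 fell, Klf6 fell slightly and Klf7 did not pass. Klf4, one of the factors that reprogram somatic cells to pluripotency, had 1.62, 2.12, 2.30, 1.93 and 2.31 CPM in TTX replicates 1 to 5, against 4.29, 5.09, 4.89, 5.67 and 3.83 CPM in vehicle replicates 1 to 5. Every TTX library was below every vehicle library, and the log2 fold change was -1.21 ± 0.132 (SE), 2.31-fold lower. Klf2, known for its induction by blood flow in endothelium and for keeping T cells quiescent, had 3.25, 3.45, 3.52, 3.31 and 3.60 CPM in TTX replicates 1 to 5, against 5.74, 7.32, 5.56, 5.12 and 6.73 CPM in vehicle replicates 1 to 5. The groups did not overlap, and Klf2 fell by 0.83 ± 0.102 on the log2 scale (SE), 1.78-fold lower. Its vehicle libraries were the more spread, with a coefficient of variation of 4.16% in TTX and 14.8% in vehicle libraries. Both genes were low in these cultures, at 115 to 277 counts per TTX library and 224 to 514 per vehicle library.

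Klf2 and Klf4 are also known from endothelial and myeloid cells, whose markers were measured beside them. For comparison with each marker list, 35.4% of all tested genes were called higher and 35.0% lower. Of 6 endothelial markers, Flt1 and Kdr fell, Pecam1 and Tek did not pass, and Cdh5 and Cldn5 were too low to test, with 0 counts in some libraries. Their summed level was 6.70 to 8.70 CPM with TTX and 13.5 to 14.2 CPM with vehicle, and Kdr, a receptor of vascular endothelial growth factor, made up most of it, with 6.95 ± 0.783 CPM in TTX and 12.5 ± 0.402 CPM in vehicle cultures (SD, n = 5 each). Of 6 mesenchymal markers 4 fell, and the sum was 28.5 to 37.3 CPM with TTX and 54.98 to 66.8 CPM with vehicle. Microglial markers summed to 28.1 to 83.0 CPM with TTX and 25.8 to 43.7 CPM with vehicle, and 3 of the 7 rose while 4 did not pass. The highest TTX sum was that of TTX replicate 5 alone. Csf1r, the largest part of the sum, had 49.74 CPM there and 16.59 to 30.24 CPM in the other TTX libraries, against 15.44 to 28.31 CPM with vehicle. P2ry12, a lower marker that rose, had 1.33 to 2.48 CPM in TTX libraries and 0.440 to 0.593 CPM in vehicle libraries. Itgam and Ptprc also rose, and their ranges overlapped between the groups. The part of these cells in the falls of Klf2 and Klf4 was not tested.

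Klf6, an activator that supports axon regrowth in zebrafish and rodent neurons, had 53.4, 54.8, 57.4, 56.3 and 53.6 CPM in TTX replicates 1 to 5, against 63.9, 63.7, 61.0, 62.3 and 64.7 CPM in vehicle replicates 1 to 5. The change was small but the groups stood apart, with a log2 fold change of -0.20 ± 0.0306 (SE), or 87.3% of the vehicle level. Klf7, which promotes axon growth and is needed for sensory neuron development in mice, had 30.8 to 34.7 CPM in TTX libraries and 28.6 to 34.6 CPM in vehicle libraries. Its ranges overlapped almost fully, and its log2 fold change was 0.06 ± 0.05 (SE).

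Between the CtBP-recruiting members, Klf3 rose and Klf12 did not pass. Klf3, a repressor of erythroid and fat cell genes that is itself a target of Klf1 in mouse erythroid cells, had 58.8, 60.6, 59.7, 59.0 and 56.3 CPM in TTX replicates 1 to 5, against 34.5, 37.7, 34.3, 35.9 and 39.0 CPM in vehicle replicates 1 to 5. The lowest TTX library was above the highest vehicle library, and the log2 fold change was 0.70 ± 0.0406 (SE), 1.62-fold. Klf12, first described as a repressor of the gene of AP-2 alpha, had 5.66 to 7.13 CPM with TTX and 6.57 to 7.22 CPM with vehicle, with a log2 fold change of -0.07 ± 0.0752 (SE). The Klf3 promoter window printed above is the one with 4 CACCC boxes.

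In the SIN3-recruiting class, Klf10 and Klf9 rose and Klf13 fell. Klf10, known as the TGF-beta-inducible early gene TIEG, had 69.1, 68.5, 70.7, 69.0 and 64.9 CPM in TTX replicates 1 to 5, against 27.0, 31.9, 31.3, 26.3 and 29.7 CPM in vehicle replicates 1 to 5. Every TTX library was far above every vehicle library, and the log2 fold change was 1.23 ± 0.0521 (SE), 2.34-fold. By size of rise it stood at rank 296 of the 13088 genes tested. Klf10 is counted among activity-induced early genes in other systems, and here it was higher in silenced cultures, whereas the 8 early genes of the treatment check were lower.

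Klf9 and Klf13 are close relatives that bind the same kind of GC box, and they moved by small amounts in opposite directions. Klf9, induced by thyroid hormone and glucocorticoids and required for the late maturation of dentate granule neurons in mice, had 204.2, 205.8, 203.9, 196.6 and 196.5 CPM in TTX replicates 1 to 5, against 192.7, 188.2, 179.8, 187.7 and 182.0 CPM in vehicle replicates 1 to 5. The groups did not overlap, although the lowest TTX library exceeded the highest vehicle library by little, and the log2 fold change was 0.11 ± 0.0256 (SE), 1.08-fold. Klf13, a regulator of the chemokine RANTES in T cells, had 6.24 to 8.10 CPM with TTX and 7.71 to 9.80 CPM with vehicle. Its ranges overlapped, and it was at 83.7% of the vehicle level with a log2 fold change of -0.26 ± 0.0842 (SE).

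Klf15, which stands apart from the 3 classes and is known as a glucocorticoid-induced regulator of amino acid and lipid use, had 20.3 to 22.1 CPM with TTX and 22.1 to 26.1 CPM with vehicle. The ranges met only at their edge, where TTX replicate 4 had 22.12 CPM and vehicle replicate 1 had 22.09 CPM. Its log2 fold change was -0.17 ± 0.0491 (SE), or 89.1% of the vehicle level.

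Compared per transcript length, on the deposited FPKM scale, Klf9 was by far the most abundant member in both groups, and Klf10 moved up the order with TTX. Klf9 stood at 78.8 ± 1.90 FPKM in TTX cultures and 72.1 ± 2.21 FPKM in vehicle cultures (SD, n = 5 each), and made up 48.5% and 49.3% of the summed FPKM of the 10 members. Klf10 was at 22.9 ± 0.795 FPKM with TTX, the second level of the 10 members, and at 9.68 ± 0.844 FPKM with vehicle, the fourth of the 10. Its share of the members' sum was 14.1% with TTX and 6.62% with vehicle, and that sum was 162.6 ± 3.92 FPKM with TTX and 146.2 ± 2.85 FPKM with vehicle. The share of Klf3 was 7.12% with TTX and 4.84% with vehicle, and that of Klf2 was 1.95% with TTX and 3.83% with vehicle. In vehicle cultures the levels of Klf10, Klf15 and Klf7 overlapped between libraries, as did those of Klf6 and Klf13 and those of Klf3 and Klf2. In TTX cultures Klf10 was above Klf6 in every library, and Klf3, Klf13 and Klf7 overlapped in turn. The TTX range of Klf13, 10.17 to 13.2 FPKM, also overlapped that of Klf6, 12.43 to 13.47 FPKM. Klf4 was lowest in both groups, at 0.849 ± 0.122 FPKM with TTX and 1.95 ± 0.299 FPKM with vehicle.

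**Figure D3:**
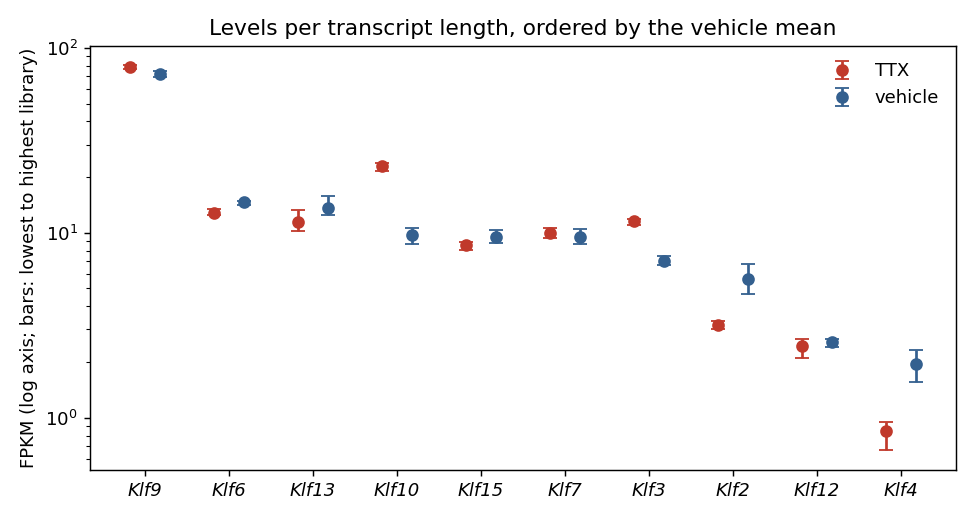
FPKM of the 10 members on a log axis, ordered by the vehicle mean, with TTX left of vehicle for each gene. Points are means of 5 libraries and bars run from the lowest to the highest library. Klf9 lies near 78.8 and 72.1 FPKM, and Klf10 is the second of the members with TTX and the fourth with vehicle.

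CPM and FPKM gave nearly the same ratio of TTX to vehicle, with a largest difference of 0.01 on the log2 scale among the members. They order the genes differently, since Klf13 was below Klf15 in CPM but above it in FPKM, at 11.5 ± 1.10 FPKM with TTX and 13.6 ± 1.34 FPKM with vehicle. The transcript length that its counts and FPKM imply was 0.617 kb, the shortest of the members, followed by Klf2 with 1.08 kb, and the others spanned 2.43 kb to 5.11 kb. Levels of Klf13 and Klf2 per length therefore rest on short gene models.

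The table holds 5 Klf genes outside the members, of which 1 rose, 3 fell and Klf1 did not pass. Among all tested genes, 35.4% were called higher and 35.0% lower. Klf5, an activator of proliferation in epithelia, had 2.54 to 3.46 CPM with TTX and 6.95 to 9.04 CPM with vehicle. Its log2 fold change of -1.49 ± 0.102 (SE; edgeR adjusted p = 7.88e-09) was a larger fall than that of any member. Klf11, the closest relative of Klf10, had 17.5 to 18.4 CPM with TTX and 10.6 to 11.9 CPM with vehicle, a log2 fold change of 0.64 ± 0.0477 (SE; edgeR adjusted p = 2.00e-08). Klf10 and Klf11 were thus both higher in every TTX library than in any vehicle library. For comparison, the CPM ranges of the groups did not overlap for 57.3% of all tested genes. Klf16, also of the SIN3 class, was lower, at 38.6 ± 2.74 CPM with TTX and 52.0 ± 1.25 CPM with vehicle (SD, n = 5 each; edgeR adjusted p = 7.83e-07). Klf14 was near the limit of detection, with 0 to 12 counts per TTX library and 18 to 65 per vehicle library (edgeR adjusted p = 0.000206). Klf1, the erythroid factor, had 1.78 to 2.83 CPM with TTX and 1.81 to 2.66 CPM with vehicle.

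**Figure D4:**
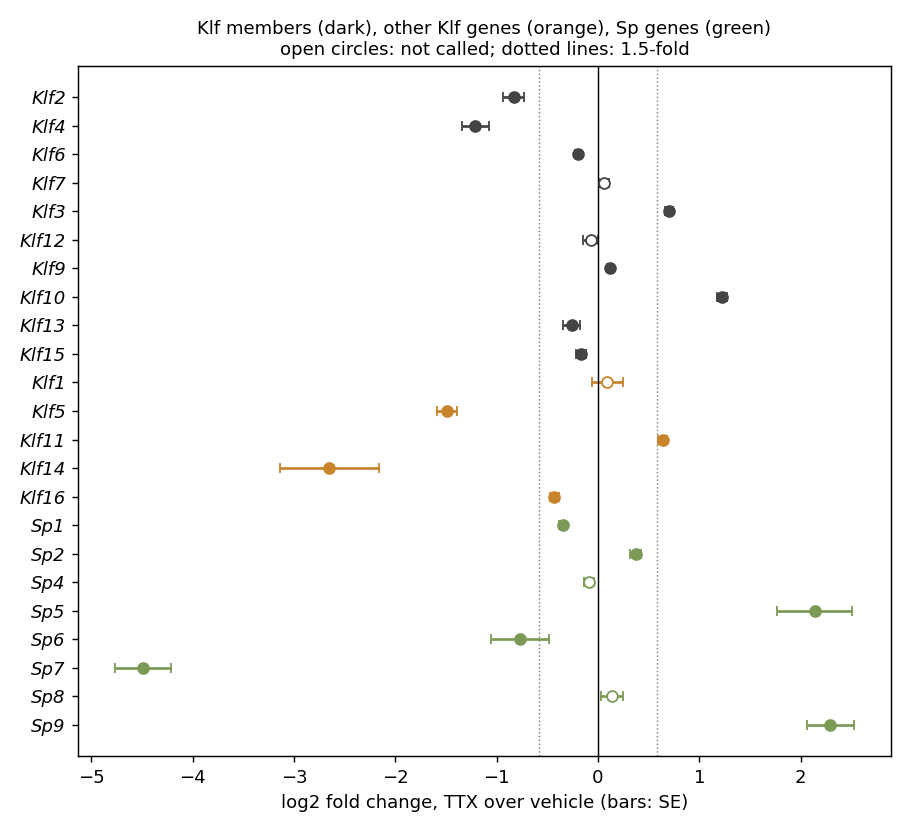
Log2 fold change of TTX over vehicle for the 10 members, the 5 other Klf genes and 8 Sp genes, with SE bars and 1.5-fold marked by dotted lines. Filled circles were called and open circles were not. Klf10 has the highest value among Klf genes at 1.23, and Klf14 and Klf5 the lowest.

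Genes of pathways known to control Klf transcription were read from the same fit, in lists chosen with earlier results of these data known. In the pathway of ERK5 and MEF2, which induces Klf2 and Klf4 in endothelium, 2 of 7 tested genes rose, 3 fell and 2 did not pass, where 35.4% of all tested genes were called higher and 35.0% lower. The list had 1 gene called higher and 3 lower with the replicate block and without TTX replicate 2, 3 or 5 or vehicle replicate 2, 4 or 5, and 3 higher and 3 lower with upper quartile scaling. Mef2a, a MEF2 transcription factor, was 1.58-fold lower (edgeR adjusted p = 5.04e-09) and the kinase Map3k2 was 1.38-fold lower, whereas the kinase Map3k3 was 1.12-fold higher. Mapk7, which encodes ERK5, had a log2 fold change of 0.08 and did not pass. Of the serum response factor list all 4 tested genes rose, among them Elk1, a ternary complex factor, 2.30-fold (edgeR adjusted p = 1.11e-12), Elk3 1.29-fold and Srf 1.17-fold. Without TTX replicate 1, 2 or 3 or vehicle replicate 5, 3 of the 4 were called. Of 5 tested genes of the CREB family, Crem was 2.76-fold lower, Crtc1, a CREB coactivator, 1.45-fold higher and Creb1 1.17-fold higher, and the other 2 did not pass. With the replicate block and without TTX replicate 3, 4 of the 5 were called. The medians of these 3 lists were 0.00, 0.30 and -0.09 on the log2 scale, against 0.01 for all tested genes.

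Glucocorticoids are known inducers of Klf9 and Klf15, and thyroid hormone of Klf9. Of 12 genes of the glucocorticoid receptors and their response, 8 fell, 3 rose and Nr3c1, the receptor, did not pass, with a median log2 fold change of -0.67. Beside this list and the thyroid hormone list, 35.4% of all tested genes were called higher and 35.0% lower. Dusp1, a MAP kinase phosphatase, had 13.8 ± 1.72 CPM in TTX cultures and 118.3 ± 7.28 CPM in vehicle cultures (SD, n = 5 each). Per1, a clock gene, was 2.92-fold lower and Zbtb16, a zinc finger repressor, 2.54-fold lower. Fkbp5 and Tsc22d3, named after their values were seen, rose by 0.11 and 0.30 on the log2 scale. Dusp1, Per1 and Sgk1 are also known as activity-induced genes. Of 9 thyroid hormone genes 4 rose, 4 fell and 1 did not pass, with a median of -0.02. The list had 4 genes called higher and 3 lower with library totals, with upper quartile scaling, with no filter or the filter of 1 CPM, with the replicate block, and without TTX replicate 1, 3, 4 or 5 or vehicle replicate 3 or 4. Dio2, the astrocytic enzyme that makes active thyroid hormone, was 3.27-fold lower and the receptor Thrb 2.25-fold lower.

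The TGF-beta pathway, which induces Klf10 and Klf11, had 4 of 11 tested genes higher, 4 lower and 3 that did not pass, with a median of -0.10. Beside this list and the markers below, 35.4% of all tested genes were called higher and 35.0% lower. The ligands Tgfb3 and Tgfb2 were 2.44-fold and 1.52-fold higher (edgeR adjusted p = 2.40e-10 and 1.75e-08). Smad7, an inhibitor of the pathway that is itself induced by it, was 1.78-fold lower. Some glial markers were also higher with TTX. Of 9 oligodendrocyte lineage markers 6 rose, Pdgfra fell, and Mag and Cspg4 did not pass. Their sum was 1917.4 to 2077.02 CPM with TTX and 1205.6 to 1480.61 CPM with vehicle, next to the astrocyte markers given above. The part of these cells in the rises of Klf10 and Klf3 was not tested.

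The cofactors that were measured changed by small amounts, and Ep300, Kat2b, Sap30 and Suds3 had no match in the count table. Of 11 tested SIN3 and CtBP corepressor genes 4 rose, 3 fell and 4 did not pass, with a median of -0.03 on the log2 scale. Among all tested genes, 35.4% were called higher and 35.0% lower. Without TTX replicate 2 or 4 or vehicle replicate 2, 3 or 4, 6 of these 11 were called. Hdac2, a histone deacetylase, was 1.19-fold higher, the histone-binding Rbbp4 1.14-fold higher and Rcor1 1.16-fold lower. Of the acetyltransferases, Crebbp was 1.10-fold higher and Kat2a had a log2 fold change of 0.02 and did not pass. Of 6 genes reported as Klf7 targets in mice, 5 fell, where 35.0% of all tested genes were called lower. The other 1 rose, where 35.4% were called higher, and the median of the list was -0.27. The 5 falls include small ones, such as that of the neurotrophin receptor Ntrk2 by 0.10 on the log2 scale, named after its values were seen. The cell cycle inhibitor Cdkn1a was 2.58-fold lower and the growth cone protein Gap43 1.27-fold lower, and the adhesion molecule L1cam had 223.9 ± 9.82 CPM in TTX cultures and 114.8 ± 4.37 CPM in vehicle cultures (SD, n = 5 each).

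**Figure D5:**
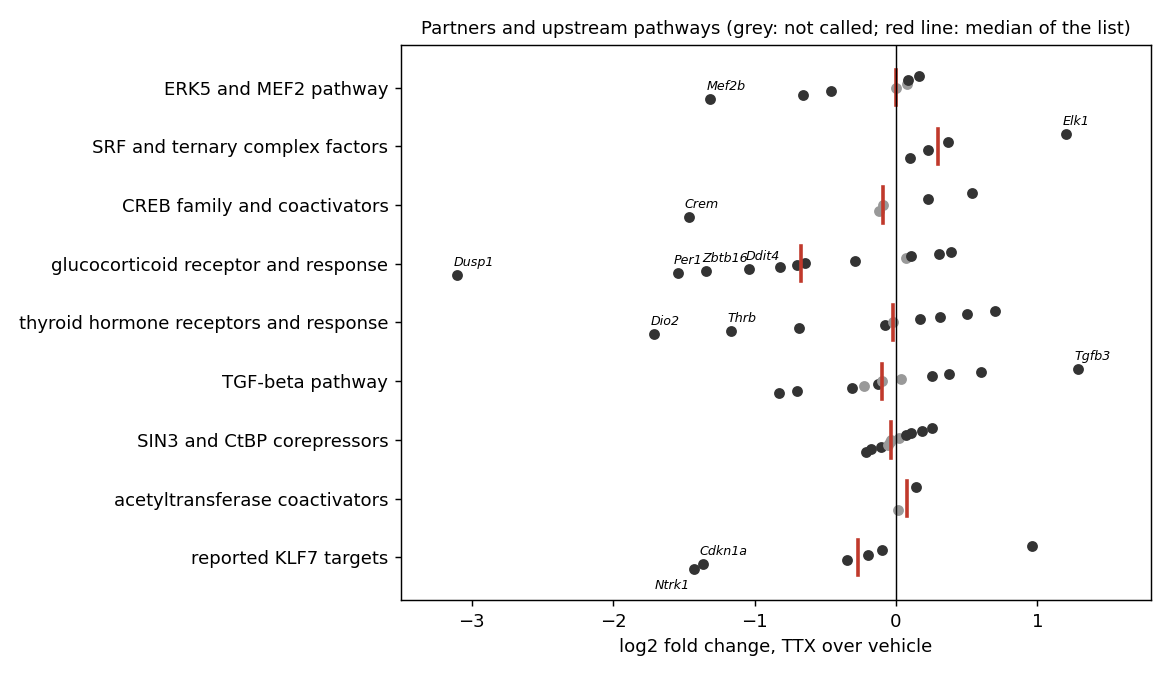
Log2 fold change of TTX over vehicle for each tested gene of 9 lists of upstream pathways, cofactors and reported targets, with the list median as a red line. Genes past 1 in either direction are named. The glucocorticoid list has the lowest median, -0.67, and the corepressors stay close to 0.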

How the data were processed

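Whole-number counts per gene and library, deposited by the authors for 5 TTX and 5 vehicle libraries, were used as deposited. FPKM values, scaled to length and library size by the authors per the file headers' unit and deposited in the same table, were used for levels per length. The deposited log2 fold changes and p-values with false discovery rates are the authors' own. Per the submitters' processing notes, reads were handled with the aligner HISAT2 (2.1.0), with StringTie and with DESeq2 on build rn6. The counting tool and its strand setting are not given in the sources used here. Whether reads of overlapping antisense genes were told apart is therefore not known. Identical repeat lines (254 of 14608) were collapsed.

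The whole table was fitted by edgeR 4.0.16 under R 4.3.3. Genes were kept by filterByExpr (count of 10, total of 15), libraries were scaled by TMM, and the two-sided quasi-likelihood test was adjusted by Benjamini-Hochberg over 13088 genes, with a threshold of 0.05. glmTreat gave the test against 1.5-fold. Each SE was derived from the F statistic, as fold change (log2) divided by its root, and CPM used TMM library sizes. The scripts were tested on simulated data. No replicate pair agreed within sampling noise (chi-square per gene of at least 9.98). Alternatives were 3 scalings, 2 filters, DESeq2 1.42.0, limma-voom (limma 3.58.1), a block for the replicate number and fits lacking 1 library each.

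The members and lists were chosen with earlier results of these data known. No match by name was found for Klf8, Klf17, Klf18, Sp3, Sap30, Suds3, Ep300 and Kat2b. The same held for Mef2c, Mrtfa, Mrtfb, Crtc3, Ski and Skil, so the counts of these lists leave them out. The genes named were all members, the other Klf and Sp genes tested, and of each list up to 3 genes of at least 1 CPM with the smallest p, of which 1 is not reported here. Slc1a2, Slc1a3, Aqp4, Mag, Cspg4, Flt1, Pecam1, Tek, Cdh5, Cldn5, Csf1r, Mapk7, Nr3c1 and Sgk1 fall outside this rule and were named after their values were seen, as were others so marked. Promoter windows came from the RefSeq table of GRCr8, matched by symbol, and the planned comparison of proteins was not made.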

Additional observations from a re-analysis of the deposited data

Results flagged for a closer look

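In 46 groups of 5 libraries of Klf and Sp genes, 3 held a library far from the other 4, and about 1 in 20 does so by chance. Klf11 was at 10.6 CPM in vehicle replicate 5, against 11.7 to 11.9 CPM in the other vehicle libraries. Sp1 was at 51.5 CPM in vehicle replicate 2, against 54.7 to 55.3 CPM in the others. Sp7 was at 0.185 CPM in TTX replicate 4, against 0.0470 to 0.0679 CPM in the other TTX libraries. None of the 10 members was flagged in this way.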

How the results depend on the processing

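Under all 18 alternatives each of the 10 members kept its direction and its call. Against 1.5-fold, 4 members passed, but only 2, Klf4 and Klf10, with DESeq2 and likewise 2 with limma-voom. Klf3 and Klf2 lost that call in both. Klf2 also lost it without TTX replicate 1 or 4 and without vehicle replicate 2 or 5. On the log2 scale Klf2 ranged from -0.89 to -0.76, Klf10 from 1.19 to 1.25 and Klf4 from -1.28 to -1.13. Klf4 changed more than Klf10 without TTX replicate 2, 3 or 5 or vehicle replicate 1 or 5. With the replicate block 8 members were called, as without it. The replicate numbers did not pair the libraries, since same-numbered libraries had correlated deviations of -0.06 to 0.01 and 0 of 5 TTX libraries correlated best with the vehicle library of their own number. Of 411 values of single genes 406 kept direction and call, and the other 5 were Sp6, which lost its call in leave-one-out fits. Klf14, Sp5 and Sp6 had no value with the filter of 1 CPM in 5 libraries. Among scalings, upper quartile moved the median of all genes most, by 0.0215 (log2). Klf14, Sp5, Sp6 and Sp7 rest on few counts.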

Other observations

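The Sp factors share the zinc fingers and GC boxes of the Klf family, and 3 of the 8 measured rose, 3 fell and Sp4 and Sp8 did not pass. Among all tested genes, 35.4% were called higher and 35.0% lower. Sp9, a factor of interneuron development, had 4.39 ± 0.941 CPM in TTX cultures and 0.884 ± 0.336 CPM in vehicle cultures (SD, n = 5 each), a log2 fold change of 2.29 (edgeR adjusted p = 4.57e-07). Sp5, a Wnt target, had 34 to 54 counts per TTX library and 3 to 17 per vehicle library. Sp7, the osteoblast factor osterix, had 4 to 11 counts per TTX library and 104 to 143 per vehicle library, with a log2 fold change of -4.49 (edgeR adjusted p = 2.41e-09). Of the broadly expressed Sp1 and Sp2, Sp1 was 1.27-fold lower and Sp2 1.29-fold higher. Sp6, with 12 to 36 counts in any library, had a log2 fold change of -0.77 that was called.

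By the authors' deposited table, a total of 8 of the 10 members have a false discovery rate under 0.05, 3 higher and 5 lower. In the edgeR fit to the same libraries, 70.5% of all tested genes were called, so nothing is read from this count. The authors' deposited table gives Klf10 a log2 fold change of 1.22 and Klf4 one of -1.21.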
